A study of Mus musculus with 2 samples.

Results

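Mitosis and G2/M genes are described here in mouse CD4+ T cells. A set of 40 genes was taken by symbol, and a probe set belonged to it when the platform annotation gave it a symbol from the set. The 2 chips of the Affymetrix Mu11k set together carry 38 such probe sets among 13179, for 30 of the 40 genes. Chip subA carries 21 genes in 26 probe sets and chip subB carries 11 genes in 12 probe sets, with Aurka and Top2a on both. No probe set was named for Bub1b, Ccnb1, Cdc20, Cdc25b, Cenpf, Kif11, Kif22, Kif23, Mad2l1 or Tacc3, so the best known mitotic cyclin, cyclin B1, is not among the values.

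The cells were purified CD4+ T cells from spleen and lymph node of female B10.PL mice carrying a transgenic T-cell receptor for Ac1-11, a peptide of myelin basic protein, with a time of 48 h in the labels. All groups used here share that genotype. The sample titles also carry the letters TCL beside the 48 h, and the titles do not explain them. The series contrasts a stimulus called 4Y, which the labels do not describe, with the Ac1-11 peptide. Each chip has 1 array with deposited levels and 1 comparison of it with a baseline array, with no replicate, so no test was possible. The authors' deposited table names the first array 4Y, while the sample label of the same values names it Ac1-11, so it is called the deposited array and all folds are deposited over baseline. Which stimulus lies on which side is not settled by the files.

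A cell that has copied its DNA enters mitosis when cyclin-dependent kinase 1, bound to cyclin A or cyclin B, becomes active. Polo and Aurora kinases then drive spindle assembly, and the checkpoint proteins delay the separation of sister chromatids until every kinetochore is attached. Kinesins and midzone proteins complete division. The transcripts of these genes rise together late in the cell cycle, and a stimulated T cell that begins to divide expresses many of them. In RNA from a whole population, fewer cells in mitosis and less of the transcript in each such cell cannot be told apart.

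Levels are average differences, the mean of perfect match minus mismatch signal over the probe pairs of a probe set, so a value near or below 0 is a signal not told from background. A probe set counted as detected when it was called present on the deposited array or was not marked absent on the baseline array, which held for 3343 probe sets of subA and 1813 of subB. The median level of detected probe sets was 1059 on the deposited and 1074 on the baseline array of subA, and 2044 and 2123 on those of subB. Of the bacterial controls, 6 probe sets were present on subA, with log2 folds of 0.58 to 1.07, and subB had 5, with log2 folds of -0.14 to 0.38. On subA these controls lay on the other side of 0 from most mitosis genes, and their part in the result was not tested. All 4 CD4+ T cell markers carried by subA and all 6 carried by subB were detected. Their summed levels were 17949 on the deposited and 16134 on the baseline array of subA, and 102741 and 136789 on those of subB. Cd3e made most of the subA sum (13557 on the deposited and 9955 on the baseline array, no difference call). Cd5 was also higher there (625 and 570), while Cd28 (1818 and 2987, decrease call) and Cd247 (1949 and 2622) were lower. On subB 5 markers had a fold below 1 and 1 a fold above 1. Cd3g counted as lower, and Cd3d and Cd4 had decrease calls at 1.8-fold and 1.4-fold lower. The CD8 T cell marker Cd8a had levels below 0 on both arrays of subB. Summed B cell marker levels were 1482 on the deposited and 2110 on the baseline array of subA (1 of 3 markers detected). The detected one was Cd79b, at 471 and 772, while Ms4a1 was absent at 1478 and 1466 and Cd22 was below 0 on both arrays. The B cell sums of subB were 8243 and 1983 (1 of 3), where Cd74 counted as higher while Cd79a and Pax5 were below 0 on both arrays. Summed myeloid marker levels were 6117 on the deposited and 2990 on the baseline array of subA (3 of 3 detected), and -223 and 1312 on those of subB (1 of 3), where Adgre1 and Csf1r were below 0. Most of this subA sum was Lyz2 (5294 on the deposited and 2286 on the baseline array, no difference call). Its fold in the authors' deposited table was 6.2 higher, more than the ratio of these levels, with 7 of 20 pairs increased and 1 decreased. Fcgr3 had 190 and -3, and Cd68 was lower, at 633 and 707. The detected marker of subB was Cd14, at 1720 and 2809. The 1 NK cell marker carried (Klrb1c, subA) was absent on both arrays at 11 and 83. The 1 erythroid marker carried (Hba-a1, subB) had 3232 and 3458 by its brightest probe set, which was absent on both arrays. It was detected by a weaker probe set, which had a log2 fold of -1 and did not count as changed. The part of these markers' cells in the results was not tested.

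On each chip taken alone, most detected mitosis genes lay slightly lower on the deposited array, and few differences were large. The 2 chips cannot be read as sharing a direction: of 135 named genes detected on both, 7 had a difference call on each chip, and all 7 pairs of calls were opposite. On subA, 15 of the 21 genes carried were detected, through 16 probe sets, and 12 of these had a fold below 1 in the authors' deposited table, where 42.5% of all detected probe sets of the chip did. Among those lower probe sets, Cdc25c had levels below 0 on both arrays and Kif2c lay near background, and both folds are approximate. With approximate folds left out, the median log2 fold was -0.26 over 13 genes of subA. On subB, 8 of 11 genes were detected with 1 probe set each, and 6 had a fold below 1 in the authors' deposited table, against 47.8% of all detected probe sets. With the sign of subB turned, 2 of its 8 genes would have a fold below 1, beside 790 of 1813 detected probe sets. The log2 fold had a median of -0.26 over the 15 detected genes of subA and of -0.26 over the 8 detected genes of subB. The subB median was -0.14 with no detection filter, with presence on both arrays required, or without the probe sets ending in _f_at, whose probes are shared within a family of sequences. Of the 5 subB members present on both arrays, 2 had more pairs decreased and 3 more increased. The median over all detected probe sets was 0 on each chip. Without the detection filter, 21 of 26 probe sets of subA and 8 of 12 of subB had a fold below 1, beside 42.8% and 47.6% of all probe sets other than controls. Members detected through only 1 array can lean towards that array. On subA these were Prc1 and Top2a (deposited array) and Aurkb and Cdc25c (baseline array). On subB they were Ccnb2, Hmgb2 and Kif20a (baseline array). Of these, Top2a was lower on the array that passed it. The members were also not chosen at random, so these counts describe the arrays and are no test. As a measure of error, genes with 2 detected probe sets were used. The log2 fold of 1 probe set had an SD about its gene's mean of 0.46 over 251 genes of subA, and of 0.62 over 51 genes of subB. Both are larger than the medians of the mitosis genes, but they are spreads of single probe sets on the same arrays. They measure neither the error of a median over genes nor the error between arrays.

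**Figure D1:**
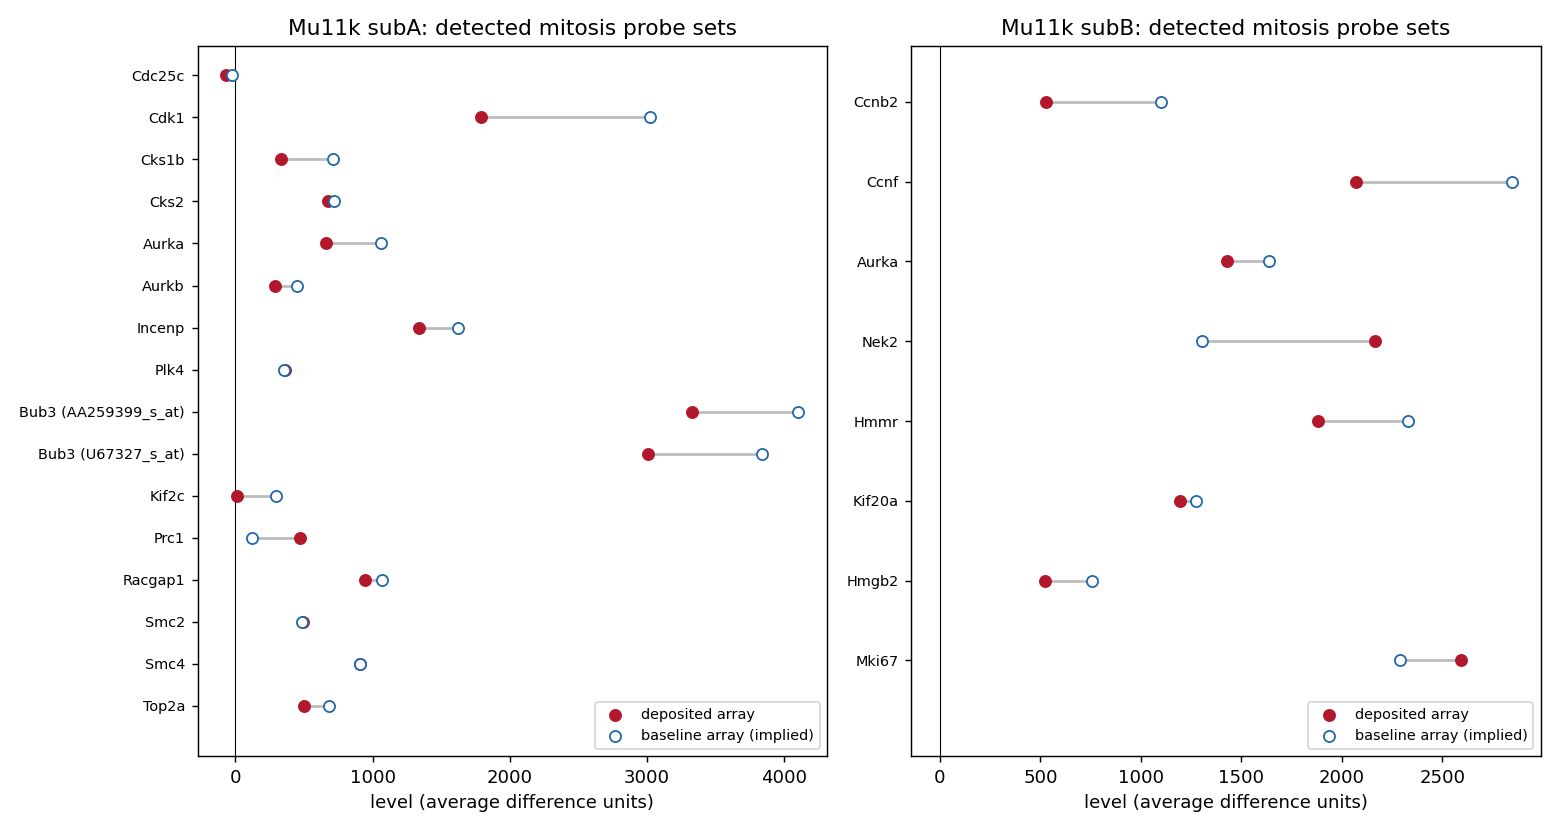
Levels of every detected mitosis and G2/M probe set on each chip, in average difference units on a linear axis, with filled points for the deposited array and open points for the baseline array, whose level was implied from the deposited change. Cdk1 (1789 on the deposited and 3024 on the baseline array) shows the widest gap on subA, and Nek2 (2168 and 1304) and Ccnb2 (530 and 1103) stand to opposite sides on subB.

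By a rule of size, a detected probe set was taken as changed where the authors' deposited table gave both a difference call of increase or decrease and a fold of 2 or more in either direction. Prc1 on subA was the 1 gene that passed, as higher, beside 1.76% of detected probe sets of that chip. No mitosis gene of subA counted as lower, beside 2.69%, and none of subB counted as higher or lower, beside 4.25% and 1.99%. Difference calls were also counted whatever the fold, beside their share over all detected probe sets. An increase call stood at 1 of 16 detected probe sets of subA (Prc1, background 3.14%) and a decrease call at 1 (Cdk1, background 4.37%), while subB had 0 of 8 of either kind (backgrounds 5.79% and 3.14%). Each of these counts on subA is a single probe set.

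**Figure D2:**
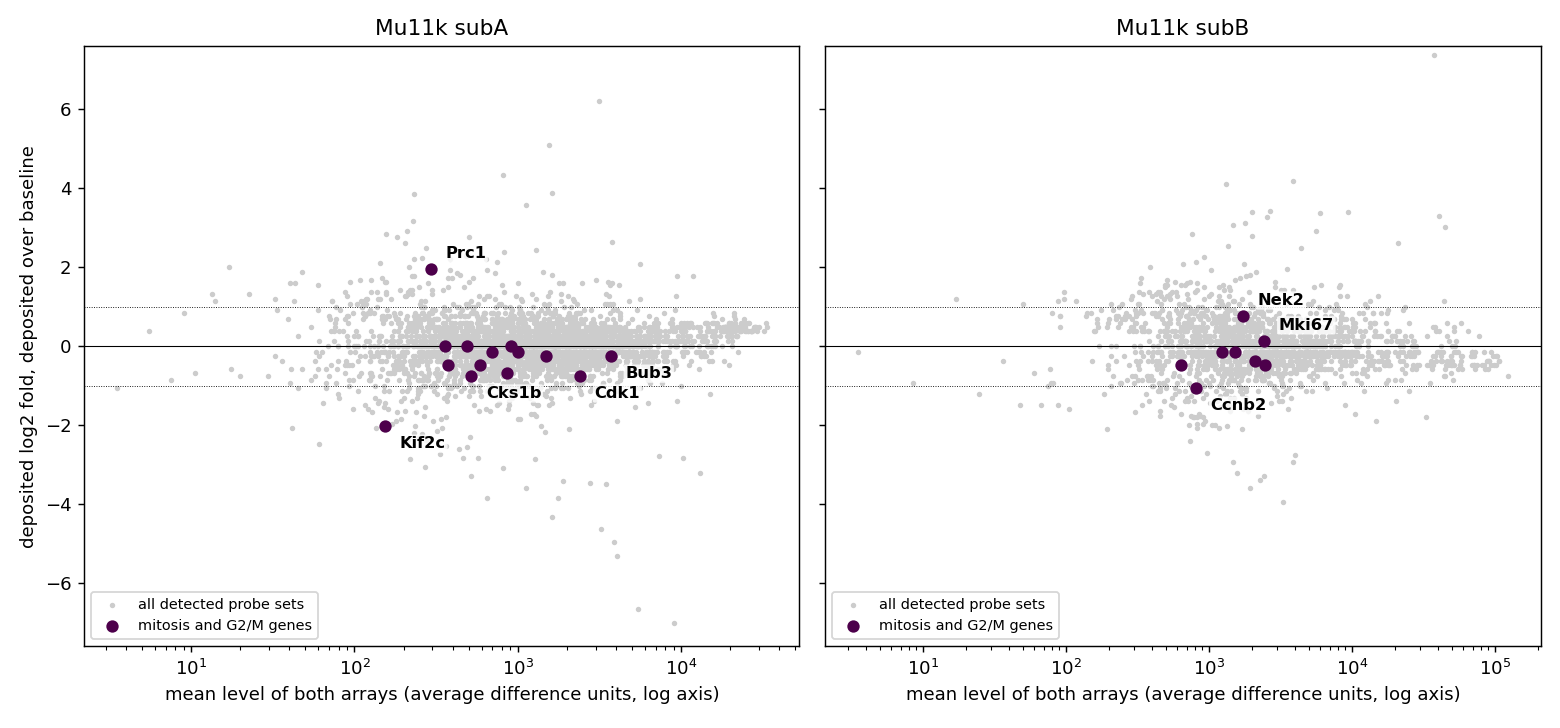
Deposited log2 fold against the mean level of both arrays (log axis) for all detected probe sets (grey) and 1 probe set for each detected mitosis gene (purple), with dotted lines at a 2-fold difference. Cdc25c is not drawn, since its mean level is below 0. Prc1 lies at 1.96 and Kif2c, an approximate fold, at -2.04, and the other points of subA lie between -0.77 and 0.

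The promoters of these genes share short sequence elements, shown here because the members are known to be transcribed together late in the cell cycle. RefSeq windows of GRCm38.p6, from 250 bases before to 50 bases after the transcript start, were found for 33 of the 40 genes, and the first window listed for each gene was scanned on both strands. The cell cycle homology region is commonly spelled TTTGAA. A variant that reads the same on both strands is TTTAAA. The CCAAT box is the site read by the factor NF-Y. The letters TTTGAA stood in 24 of the 33 windows (72.7%), against 18.1% of the windows of all 27025 genes. TTTAAA stood in 8 (24.2%), against 13.2% of all windows. At least 1 CCAAT stood in 29 (87.9%), against 37.9%, and at least 2 in 20 (60.6%), against 12.2%. Both kinds of element were present together in 25 (75.8%), against 10.9%. The letters are a property of the reference sequence and not of these samples, and a match is not a site of binding.

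The windows of Cdk1 and Prc1 are printed because these 2 genes carry the only difference calls, those of Ccnb2 and Nek2 because they had the largest folds on subB, and that of Aurka because both chips measured it. Each runs 5′ to 3′ along the gene, with the letters of these elements in capitals, read on either strand. The windows lie at chr10:69352863-69353162 (minus strand, Cdk1), chr9:70421505-70421804 (minus, Ccnb2), chr2:172370521-172370820 (minus, Aurka), chr7:80294201-80294500 (plus, Prc1) and chr1:191821223-191821522 (plus, Nek2).
Cdk1: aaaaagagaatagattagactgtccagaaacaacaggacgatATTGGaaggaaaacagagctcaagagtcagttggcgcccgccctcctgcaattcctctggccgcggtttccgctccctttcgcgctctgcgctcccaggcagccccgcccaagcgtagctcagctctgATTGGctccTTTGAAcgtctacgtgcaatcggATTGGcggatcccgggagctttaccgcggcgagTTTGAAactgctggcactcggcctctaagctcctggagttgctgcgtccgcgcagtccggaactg
Ccnb2: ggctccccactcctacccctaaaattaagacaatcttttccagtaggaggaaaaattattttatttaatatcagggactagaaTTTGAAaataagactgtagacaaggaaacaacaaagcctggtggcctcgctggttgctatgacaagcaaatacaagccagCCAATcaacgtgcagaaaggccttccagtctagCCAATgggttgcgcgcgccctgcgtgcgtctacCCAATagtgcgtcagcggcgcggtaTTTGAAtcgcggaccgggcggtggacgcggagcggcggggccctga
Aurka: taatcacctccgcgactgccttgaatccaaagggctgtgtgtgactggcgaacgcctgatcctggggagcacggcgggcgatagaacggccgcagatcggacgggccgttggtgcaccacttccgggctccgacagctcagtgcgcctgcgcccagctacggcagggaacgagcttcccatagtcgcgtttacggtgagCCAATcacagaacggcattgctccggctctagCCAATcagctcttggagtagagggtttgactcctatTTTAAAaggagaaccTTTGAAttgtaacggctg
Prc1: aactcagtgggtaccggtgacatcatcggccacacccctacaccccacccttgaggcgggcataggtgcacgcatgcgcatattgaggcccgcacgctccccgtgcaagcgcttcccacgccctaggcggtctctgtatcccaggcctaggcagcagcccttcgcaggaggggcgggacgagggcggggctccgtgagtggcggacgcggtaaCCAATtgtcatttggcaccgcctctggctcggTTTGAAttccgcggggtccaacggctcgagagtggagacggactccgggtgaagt
Nek2: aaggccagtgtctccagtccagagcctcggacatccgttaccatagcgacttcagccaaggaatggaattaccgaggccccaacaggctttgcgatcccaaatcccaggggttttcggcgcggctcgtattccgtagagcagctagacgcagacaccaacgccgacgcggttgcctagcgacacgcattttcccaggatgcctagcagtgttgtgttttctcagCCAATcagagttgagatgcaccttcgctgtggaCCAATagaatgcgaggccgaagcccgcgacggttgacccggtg

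Cdk1 and Prc1, which had opposite difference calls, hold both kinds of element. In the Prc1 window the CCAAT starts at -37 and the TTTGAA at -5, relative to the transcript start. In the Cdk1 window TTTGAA starts at -71 and -15 relative to the start, and the CCAAT letters lie on the other strand, beginning at -208, -80 and -48. Ccnb2 has 3 CCAAT and Nek2 has 2, and neither spelling of the cell cycle homology region searched here was found in the Nek2 window.

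Of Cdk1 and its partners, Cdk1, Cks1b and Cks2 on subA had folds below 1 in the authors' deposited table, where 42.5% of detected probe sets did, and Cdc25c gave no usable fold. On subB, Ccnb2 and Ccnf had folds below 1 in the authors' deposited table, where 47.8% did. Cdk1, the kinase that drives entry into mitosis, had a level of 1789 on the deposited array, against 3024 on the baseline array of subA, present on the first and not marked absent on the second. The authors' deposited table gives a 1.7-fold lower value, with a decrease call and with 11 of 20 probe pairs scored as decreased and 0 as increased. It did not reach the 2-fold limit, and it was the member with the most pairs on one side.

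Cks1b and Cks2 encode small subunits that bind cyclin-dependent kinases. Cks1b had a level of 330 on the deposited array and 710 on the baseline array of subA. The authors' deposited table gives it a fold of 1.7 lower with no difference call, 3 of 20 pairs decreased and 1 increased, although the ratio of the levels is 2.15. Cks2 had 676 on the deposited and 716 on the baseline array, and its fold in the authors' deposited table is 1.1 lower. Neither had a difference call, and the difference between them was not tested. Cdc25c, the phosphatase that activates Cdk1, had levels of -68 on the deposited and -27 on the baseline array, with a marginal call and an approximate fold.

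The cyclins were on subB. Ccnb2, which encodes cyclin B2, had a level of 530, called absent, on the deposited array and 1103 on the baseline array. The authors' deposited table gives a 2.1-fold lower value with no difference call, 6 of 20 pairs decreased and 1 increased. Ccnb2 was the only member of subB with an exact fold of at least 2, and it did not count as changed for want of a difference call. Ccnf, which encodes cyclin F, the substrate-binding subunit of a ubiquitin ligase, had 2070 on the deposited and 2847 on the baseline array. The authors' deposited table gives a 1.4-fold lower value, with 3 pairs decreased and 0 increased. Ccna2, cyclin A2, was absent on both arrays, with levels of 1472 on the deposited and 1323 on the baseline array, and 3 pairs increased and 0 decreased in the authors' deposited table. Over the detected probe sets of this kind, 17 of 80 pairs were decreased and 4 increased on subA, but Cdk1 alone gave 11 of the 17, and Cks1b, Cks2 and Cdc25c gave 3, 2 and 1. On subB, Ccnb2 and Ccnf together had 9 of 40 pairs decreased and 1 increased. All detected probe sets had 12.5% of pairs decreased on subA and 14.1% on subB.

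Apart from Cdk1, no mitotic kinase had a difference call. Aurka, the Aurora kinase of spindle poles, had levels of 660 on the deposited and 1060 on the baseline array of subA, and of 1428 and 1638 on those of subB. The authors' deposited table gives folds of 1.6 lower on subA (4 pairs decreased, 0 increased) and 1.1 lower on subB (2 decreased, 4 increased), with no difference call on either chip. The 2 chips thus have the same sign for the level of Aurka, but on subB the probe pairs lean the other way. This gene and Top2a are the members that both chips carry. Given the opposite calls between the chips, the shared sign cannot be read as the same response to a stimulus.

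Aurkb, the Aurora kinase of the chromosomal passenger complex, had a level of 291, called absent, on the deposited and 452 on the baseline array of subA, a fold of 1.4 lower in the authors' deposited table with 5 pairs decreased and 3 increased. Its scaffold Incenp had 1335 on the deposited and 1623 on the baseline array by the detected probe set, 1.2-fold lower in the authors' deposited table. Neither had a difference call, and another Incenp probe set was absent on both arrays, at -110 and -64. Plk4, the kinase of centriole duplication, was level, with 358 on the deposited and 355 on the baseline array. Plk1, the polo-like kinase of mitotic entry and exit, was absent on both arrays of subA, at 654 on the deposited and 1286 on the baseline array. Its 2-fold lower value in the authors' deposited table had 3 pairs decreased and 1 increased, and as an undetected member it did not count. The ID of this probe set ends in _f_at, so other transcripts may add to the signal.

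Nek2, a kinase that separates the centrosomes, had a level of 2168 on the deposited array and 1304 on the baseline array of subB, neither absent. The authors' deposited table gives it a 1.7-fold higher value with no difference call, 5 of 20 pairs increased and 3 decreased. The pairs of Nek2 were thus divided, while the 1.7-fold lower value of Cdk1 had every scored pair on one side.

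Of the checkpoint and centromere genes, Bub3 was the only one detected, on subA. Bub3, which helps to hold anaphase until all kinetochores are attached, had levels of 3326 on the deposited and 4102 on the baseline array by AA259399_s_at, and of 3007 and 3840 by U67327_s_at. The authors' deposited table gives these 2 probe sets 1.2-fold and 1.3-fold lower values with no difference call, with 0 and 3 pairs decreased and 0 increased at either. These probe sets differed by less than the SD of 0.46 between probe sets of 1 gene, and Bub3 is the only member with more than 1 detected. A further Bub3 probe set was absent on both arrays, at 349 on the deposited and 360 on the baseline array. Bub1, the checkpoint kinase, was absent by both of its probe sets, with 7 and 94 on the deposited and 89 and 150 on the baseline array. The kinase gene Ttk (-261 on the deposited, -170 on the baseline array) and the centromere motor gene Cenpe (-43 and -33) had no signal above background. Cenpa, the histone variant of centromeres, was absent at 374 on the deposited and 470 on the baseline array.

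Prc1, which bundles antiparallel microtubules in the spindle midzone, was higher on the deposited array of subA and was the only member to pass the rule of size. Its level was 467, called present, on the deposited array and 119, marked absent, on the baseline array. The authors' deposited table gives it a 3.9-fold higher value with an increase call, 8 of 20 pairs increased and 1 decreased. Its probe pairs scored as positive, with a perfect match well above the mismatch, numbered 12 of 20 on the deposited and 5 on the baseline array. The fold of Prc1 stands on a baseline not told from background, so its size is uncertain, and 1 probe set represents the gene.

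Kif2c, a kinesin that depolymerises microtubules at centromeres, had the widest lower fold among the detected members, at a signal close to background. Its level was 12 on the deposited array, where it was nevertheless called present, and 297 on the baseline array of subA. The authors' deposited table marks its 4.1-fold lower value as approximate, with no difference call, 6 pairs decreased and 4 increased, and the related probe set c77497_rc_g_at was absent at -297 and -240. Racgap1, of the centralspindlin complex that positions the cleavage furrow, had 945 on the deposited and 1068 on the baseline array, while 3 of its pairs were increased and 0 decreased in the authors' deposited table. Level and probe pairs of Racgap1 pointed in different directions, and its fold of 1.1 lower in the authors' deposited table had no difference call. Kif4, a kinesin that binds chromosomes, was absent at -31 on the deposited and -94 on the baseline array.

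On subB, Hmmr, a microtubule-associated protein also known as a hyaluronan receptor, had 1883 on the deposited and 2328 on the baseline array, 1.3-fold lower in the authors' deposited table with 3 pairs decreased and 1 increased. A weaker Hmmr probe set was absent at 44 on the deposited and 267 on the baseline array. Both Hmmr probe sets and that of Stmn1 carry the _f_at mark. Kif20a, a kinesin of the midzone, had 1194, called absent, on the deposited and 1276 on the baseline array, a difference of 1.1-fold in the authors' deposited table. Stmn1, which encodes the microtubule destabiliser stathmin, was absent at 175 on the deposited and 47 on the baseline array. No motor or midzone gene of subB therefore differed by as much as the spread between probe sets.

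Among the genes of chromosome structure, Smc2, Smc4 and Mki67 were nearly level, and Top2a and Hmgb2 were 1.4-fold lower in the authors' deposited table without a difference call. Smc2 and Smc4, the paired ATPases at the core of condensin, had 495 and 908 on the deposited array, against 483 and 904 on the baseline array of subA. Top2a, the topoisomerase that untangles sister chromatids, had 498, called present, on the deposited and 679, marked absent, on the baseline array of subA. The authors' deposited table gives it a 1.4-fold lower value with 3 pairs decreased and 3 increased, and on subB it was absent at -371 on the deposited and -227 on the baseline array. The Top2a probe sets of both chips carry the _f_at mark. Mki67, which encodes the proliferation antigen Ki-67, had 2596 on the deposited and 2289 on the baseline array of subB, 1.1-fold higher in the authors' deposited table with 4 pairs increased and 2 decreased. Hmgb2, a chromatin protein of dividing cells, had 525, called absent, on the deposited and 759 on the baseline array, 1.4-fold lower in the authors' deposited table with 6 pairs decreased and 2 increased. Mki67 and Hmgb2 thus had opposite signs, with no difference call for either.

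Probe pairs were read as a measure beside the fold. On subA, 10 of 16 detected member probe sets had more pairs decreased than increased in the authors' deposited table, 4 had more increased and 2 were tied, where 40.9% of all detected probe sets had more pairs decreased. On subB, 5 of 8 had more decreased, beside 43.6%. Summed over the detected members of subA, 49 of 320 pairs (15.3%) were scored as decreased and 32 (10%) as increased in the authors' deposited table, while all detected probe sets had 12.5% and 12.4%. On subB the members had 28 of 160 pairs (17.5%) decreased and 19 (11.9%) increased, while all detected probe sets had 14.1% and 15%. Ccnb2, Hmgb2 and Kif20a were detected there only through the baseline array. The 5 subB members present on both arrays had 13 of 100 pairs decreased and 14 increased, beside 13.4% and 14.1% of all such probe sets. The 12 such member probe sets of subA had 39 of 240 decreased and 16 increased, beside 11.7% and 11.8%. Cdk1 alone gave 11 of the 49 decreased pairs on subA and Prc1 gave 8 of the 32 increased pairs. The pairs of a probe set share an array and are not replicates.

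**Figure D3:**
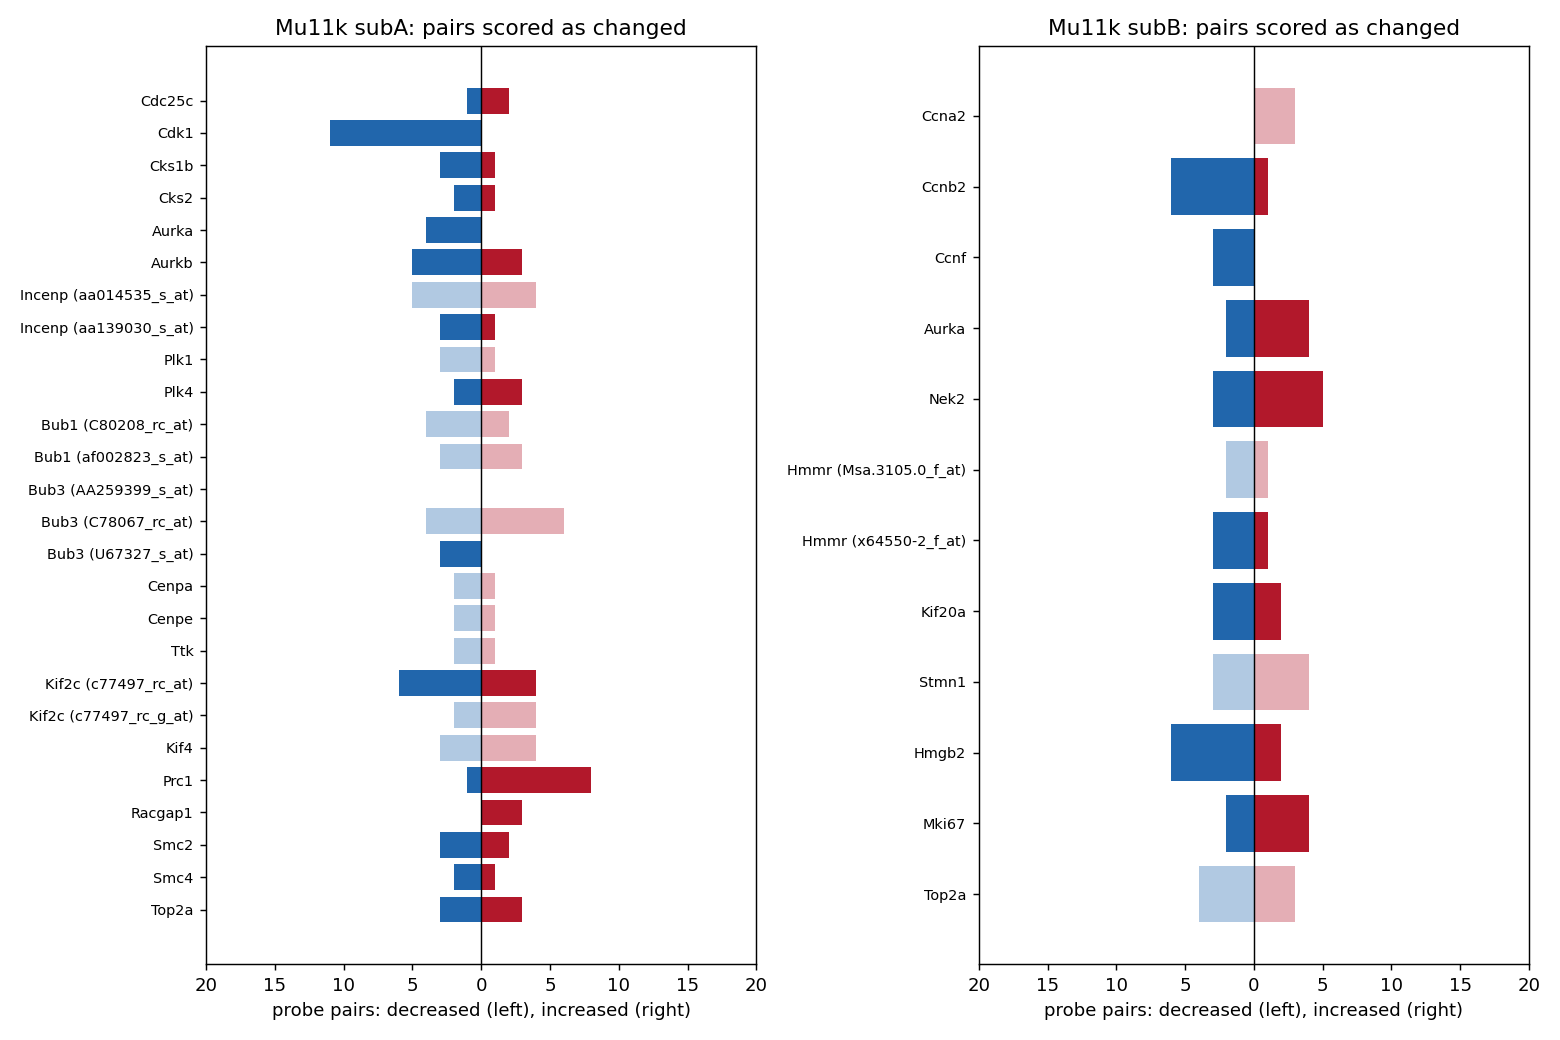
Number of probe pairs scored as decreased (blue, to the left) and increased (red, to the right) for every mitosis and G2/M probe set of each chip, 20 pairs each, with pale bars for probe sets not detected. Cdk1 has 11 decreased and 0 increased, Prc1 has 8 increased and 1 decreased, and most other probe sets have small numbers on both sides.

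In all, 6 genes of subA (Bub1, Cenpa, Cenpe, Kif4, Plk1 and Ttk) and 3 of subB (Ccna2, Stmn1 and Top2a) had no detected probe set. The 10 undetected member probe sets of subA ranged from -297 to 654 on the deposited and from -240 to 1286 on the baseline array, and the 4 of subB from -371 to 1472 and from -227 to 1323. The absence of a call is a limit of these arrays and does not show that the genes were silent in dividing T cells.

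Other cell cycle lists were set beside the mitosis genes. Of all detected probe sets, 1.76% counted as higher and 2.69% as lower on subA, and 4.25% and 1.99% on subB. Of 22 detected G1/S and DNA replication genes on subA, 19 had a fold below 1 in the authors' deposited table, where 42.5% of all detected probe sets did. Their median log2 fold was -0.26, and 2 counted as lower and 0 as higher. The 2 lower genes were Mcm6, a subunit of the replicative helicase (591 on the deposited and 1940 on the baseline array, a 3.3-fold lower value), and Cdc25a, a phosphatase that activates cyclin-dependent kinases (436 and 890, a 2-fold lower value), both by the authors' deposited table. The Mcm6 probe set carries the _f_at mark, so other transcripts may add to its signal. The D cyclin genes Ccnd2 and Ccnd3, far brighter, had folds of 1.2 and 1.1 lower by the authors' deposited table and did not count. On subB, 5 genes of this list were detected with a median of 0 and none counted as changed, with Tfdp1 at 1.0 and Pcna, the replication clamp, at 1.5-fold lower in the authors' deposited table. The lower median was thus shared by replication and mitosis genes on subA, while on subB the medians were 0 and -0.26, and the difference between the lists was not tested.

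Of 8 detected genes of the anaphase-promoting complex and sister separation on subA, none counted as changed and the median was 0. Anapc5 was at 1.0 and Ube2s, a ubiquitin-conjugating enzyme of that complex, was called decreased at 1.5-fold by the authors' deposited table. Anapc1, the 1 such gene detected on subB, was 1.2-fold higher in the authors' deposited table. None of the 4 detected genes of cohesin and of other condensin subunits on subA counted (median -0.07), with Rad21 at 1.0 and Stag2 at 1.5-fold higher in the authors' deposited table. The difference between these lists and the mitosis genes was not tested.

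Among genes of entry into mitosis, 1 of 3 detected on subA counted as lower, Cdc25a again, beside 2.69% of all detected probe sets. Ccng2 was at 1.0 and Chek1 at 1.5-fold lower in the authors' deposited table (median of the list -0.58). On subB 1 of 2 counted as lower, beside 1.99% of all detected probe sets. It was Ccng1, which encodes cyclin G1 (1785 on the deposited and 5373 on the baseline array, 3-fold lower, 14 of 20 pairs decreased in the authors' deposited table). Wee1, the kinase that holds Cdk1 inactive, had 169, called absent, on the deposited and 248 on the baseline array (median of the list -0.92). Of 7 detected spindle, tubulin and Ran genes on subA, 1 counted as lower, beside 2.69% of all detected probe sets. It was Mapre1, a protein of growing microtubule ends (1582 on the deposited and 3192 on the baseline array, 2-fold lower, 15 of 20 pairs decreased in the authors' deposited table). The bright tubulin gene Tuba1a was 1.2-fold higher on each chip in the authors' deposited table, Tubb5 was 1.1-fold higher on subB and the importin gene Kpna2 was 1.5-fold lower on subA. These Tuba1a and Tubb5 probe sets carry the _f_at mark, so other transcripts may add to their signal. The list had a median of 0 on subA and 0.14 on subB (3 genes). The 5 detected nuclear envelope and chromatin genes of subA had a median of -0.49, the 3 of subB had 0, and none counted, with Banf1 at 1.4-fold lower and H2az1 at 1.0 on subA, and Cbx5 at 1.3-fold lower and Tmpo at 1.0 on subB in the authors' deposited table.

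**Figure D4:**
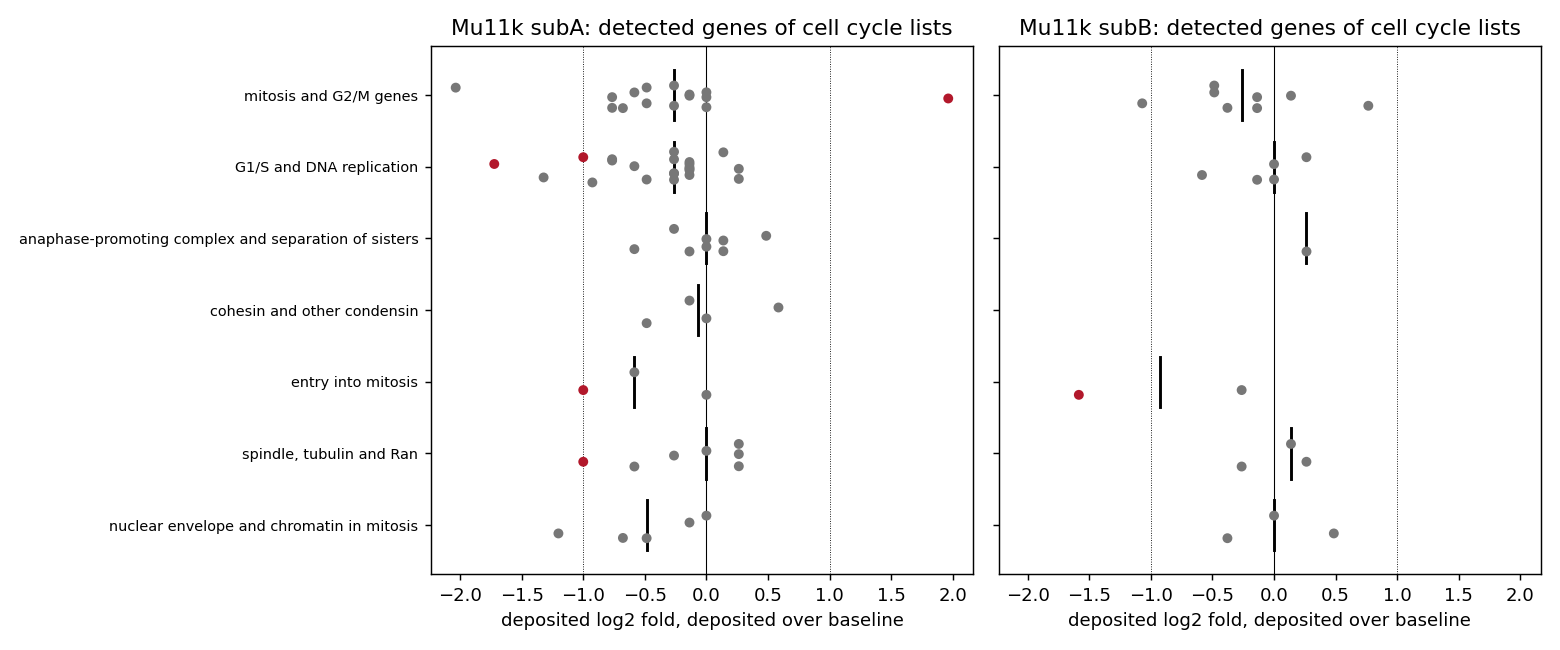
Deposited log2 fold of each detected gene of the mitosis and G2/M set and of 6 other cell cycle lists on each chip, 1 point a gene, with a black bar at the list's median, red points for genes that counted as changed and dotted lines at a 2-fold difference. The mitosis genes have a median of -0.26 on each chip, with Prc1 as the 1 red point, and the red points of the other lists are all to the lower side.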

How the data were processed

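Biotinylated cRNA from total RNA was hybridised to the Mu11k chips, per the labels' protocols. The authors deposited array intensity values as average differences, and, per the file headers, 2-array comparison values (scores of level and change, signed folds, calls and probe pair numbers). Software, noise settings and scaling are not given in the sources used here. The baseline level was computed as deposited level minus deposited change, and an asterisk was read as baseline absent. Folds marked approximate were kept and named. Of exact folds, 94.9% on subA and 93.5% on subB lay within 0.15 log2 of the ratio of the levels. Genes were named through the platform annotation and RefSeq (0 symbols altered). On subA 5560 probe sets had 1 symbol, 197 several and 827 none, on subB 2001, 27 and 4567. For a list's median, the probe set with the highest mean level stood for its gene. All detected members are given with values, and of other lists the changed genes and up to 2 bright unchanged ones. The members and lists were chosen with earlier results of these data known. Counting was tested on simulated folds, from which the simulated difference calls were also set. That checks the counting itself and not the error of the rule on these arrays. With 1 array a condition there is no error beyond that between probe sets, and the number of arrays limits precision. Alternatives were other thresholds, calls, filters and scalings. Work was done in Python 3.11.15, pandas 2.3.3, NumPy 2.4.6 and matplotlib 3.10.9.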

Additional observations from a re-analysis of the deposited data

How the results depend on the processing

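The 1 changed mitosis gene of subA (Prc1) became 2 with a fold threshold of 1.5 (Prc1 and, as lower, Cdk1) and 2 with no difference call required (Prc1 and, as lower, Kif2c). It became 0 when a probe set had to be present on both arrays, since the Prc1 baseline is marked absent. The count of 0 on subB became 1 with no difference call required (Ccnb2, lower). The counts were as reported under the other 6 of 9 alternatives on subA and 8 of 9 on subB. The median log2 fold of detected members lay between -0.32 and -0.26 on subA and between -0.26 and -0.14 on subB over 8 alternatives each, 1 of which (leaving out probe sets ending in _f_at) was added after the data were seen. Of the single folds, 29 of 31 alternatives on subA and 16 of 16 on subB moved the value by less than the SD between probe sets of a gene. The exceptions were Cdc25c, at 0 with levels floored at 100, and Kif2c, at -1.57. Each chip rests on 1 deposited and 1 baseline array, so differences of the size seen for most members cannot be told from array error, and the lowest levels are limited by background.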
